A study of Mus musculus with 11 samples.

Results

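Heat shock and chaperonin genes encode the proteins that fold other proteins and keep them folded. They were picked here by symbol: a probe set of the array counted when its annotation held exactly 1 gene and that gene was named as a heat shock protein (Hsp), a J protein (Dnaja, Dnajb or Dnajc), a subunit of the cytosolic chaperonin (Cct2 to Cct8) or Cryab. This gave 205 of 45101 probe sets, for 83 of the 18194 genes with such a probe set. The signal filter, a value of 200 on at least 3 of the 11 arrays in whichever group, was passed by 142 of these probe sets and 65 of these genes, out of 17133 probe sets and 10070 genes over the array. Of the 65 genes, 8 had a group mean under 200, so they could pass through the groups in which they were brighter. The symbol also caught 4 genes that are not chaperones of these families: Hspg2 (the matrix protein perlecan), Hspb11 (a protein of cilia), Hspbp1 (an exchange factor for HSP70) and Hspbap1. Hsp90ab1 was not analysed here.

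The arrays measured RNA from mouse cultures of oligodendrocytes, the cells that wrap axons of the brain and spinal cord in myelin, and of their progenitors. All cells were selected from brains at postnatal day 7 by the surface receptor PDGFRα after a lectin, BSL1, had removed microglia, and their medium held no serum but 2% B-27. Knockout oligodendrocytes (labelled CKO, n = 3) carried MRF fl/fl; Olig2 wt/cre, so that both copies of MRF, now called Myrf, could be deleted by a Cre made from the Olig2 locus. Control oligodendrocytes (n = 4) came from MRF wt/fl; Olig2 wt/cre littermates. They shared the Cre and the single unmodified Olig2 copy, and had 1 floxed Myrf copy. Both kinds were taken 4 days after PDGF had been withdrawn and the thyroid hormone T3 added at 40 ng/ml. Progenitors (OPC, n = 4) were kept dividing in 10 ng/ml PDGF over 6 days, and their label gives no genotype beyond the word control. The labels do not say whether arrays of a group came from separate animals or cultures, so p-values measure the spread between these arrays. In such cultures fewer cells of a type and less RNA per cell cannot be told apart.

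Chaperones work in relays. HSP70 proteins bind and release unfolded chains in a cycle driven by ATP, J proteins bring them the chains and start the cycle, and HSP110 proteins reset it. HSP90 finishes client proteins such as kinases and receptors. The cytosolic chaperonin, CCT or TRiC, is a double ring of 8 different subunits that folds actin and tubulin inside its chamber, and Hspd1 with its lid Hspe1 does similar work in mitochondria. Small heat shock proteins, to which Cryab belongs, hold unfolded proteins without ATP. In the nervous system Cryab is known as an abundant protein of oligodendrocytes, and also of stressed astrocytes. After heat, the factor HSF1 turns many of these genes on through heat shock elements, which are repeats of the letters GAA in alternating direction.

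Promoter sequence was given for 68 of the 83 genes, in 87 windows from 250 bases before to 50 after a gene's start, from RefSeq on the mouse build GRCm38.p6. The element of 3 units (GAA, 2 free bases, TTC, 2 free bases and GAA, read on both strands) was found in windows of 4 of these genes: Hspd1, Hspe1, Hsph1 and Dnajb6. That was 6.9% of the member windows, against 0.603% of all 32851 windows of this length. Overlapping windows were each counted, so this is not a share of separate elements. The windows of Hspd1 and Hspe1 hold the same element, as do the windows of Dnajb6 and those of Hsph1. The shorter form of 2 units (GAA, 2 free bases and TTC, or TTC, 2 free bases and GAA, read on both strands), which overlaps the longer one, was in 25.3% of member windows, for 20 genes, against 15.1% of all windows. The sequences below are shown because their genes are described below, and Hspe1 for the stretch it shares with Hspd1. They are printed from 5′ to 3′ on the gene's strand, and capitals mark the heat shock element, or the endoplasmic reticulum (ER) stress element in Hspa5. A match to these letters is a description and not a measured binding site.
The first 3 are small heat shock genes, and each holds GAAGTTTC, as Cct2 does. Hspb1 lies at chr5:135887669-135887918 (plus strand), Hspb6 at chr7:30553051-30553300 (plus strand), and the stretch of Hspb8, just after its start, at chr5:116422844-116422873 (minus strand).
Hspb1: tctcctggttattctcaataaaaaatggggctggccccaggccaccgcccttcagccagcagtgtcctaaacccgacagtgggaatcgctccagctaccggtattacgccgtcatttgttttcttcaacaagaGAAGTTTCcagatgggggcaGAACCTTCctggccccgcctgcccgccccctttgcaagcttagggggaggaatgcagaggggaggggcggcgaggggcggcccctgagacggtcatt
Hspb6: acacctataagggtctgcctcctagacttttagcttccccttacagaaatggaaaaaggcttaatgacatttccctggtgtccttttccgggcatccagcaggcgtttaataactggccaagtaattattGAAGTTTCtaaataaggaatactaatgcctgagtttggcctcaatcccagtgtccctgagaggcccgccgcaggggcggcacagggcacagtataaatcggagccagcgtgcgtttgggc
Hspb8: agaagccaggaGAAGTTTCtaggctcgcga
The next 2 are chaperonin subunits with an element of 2 units close to the start, Cct2 at chr10:117063376-117063625 and Cct5 at chr15:31601847-31602096, both on the minus strand.
Cct2: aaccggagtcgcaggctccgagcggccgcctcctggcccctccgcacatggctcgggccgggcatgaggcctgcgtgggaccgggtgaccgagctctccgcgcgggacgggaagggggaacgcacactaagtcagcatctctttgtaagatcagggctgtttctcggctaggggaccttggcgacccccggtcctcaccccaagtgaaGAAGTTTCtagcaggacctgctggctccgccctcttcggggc
Cct5: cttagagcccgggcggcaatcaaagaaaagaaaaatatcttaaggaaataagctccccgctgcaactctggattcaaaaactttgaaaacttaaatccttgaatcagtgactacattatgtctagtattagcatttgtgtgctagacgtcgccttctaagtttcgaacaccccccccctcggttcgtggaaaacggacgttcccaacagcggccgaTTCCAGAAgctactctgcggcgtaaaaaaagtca
Of the next 3, with an element of 3 units, Hspe1 lies at chr1:55087898-55088147 (plus strand), Dnajb6 at chr5:29735648-29735897 (plus strand) and the stretch of Hsph1 at chr5:149636287-149636316 (minus strand). The windows of Hspe1 and Hspd1 share 285 bases on opposite strands, so both hold the same element.
Hspe1: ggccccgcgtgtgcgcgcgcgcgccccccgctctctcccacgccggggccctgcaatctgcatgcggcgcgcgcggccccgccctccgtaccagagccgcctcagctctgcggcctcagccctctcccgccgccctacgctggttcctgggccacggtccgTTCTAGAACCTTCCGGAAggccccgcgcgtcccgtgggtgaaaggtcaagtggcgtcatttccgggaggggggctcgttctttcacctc
Dnajb6: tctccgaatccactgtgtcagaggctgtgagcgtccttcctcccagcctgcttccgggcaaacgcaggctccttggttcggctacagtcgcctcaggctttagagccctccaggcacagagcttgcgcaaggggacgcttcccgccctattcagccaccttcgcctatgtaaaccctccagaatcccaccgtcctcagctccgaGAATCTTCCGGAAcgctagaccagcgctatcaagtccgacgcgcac
Hsph1: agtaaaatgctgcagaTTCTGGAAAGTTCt
Hspa5, at chr2:34771840-34772089 (plus strand), holds the ER stress element (CCAAT, 9 free bases and CCACG, read on both strands), as do Dnajc3 and Hsp90b1, against 0.119% of all windows.
Hspa5: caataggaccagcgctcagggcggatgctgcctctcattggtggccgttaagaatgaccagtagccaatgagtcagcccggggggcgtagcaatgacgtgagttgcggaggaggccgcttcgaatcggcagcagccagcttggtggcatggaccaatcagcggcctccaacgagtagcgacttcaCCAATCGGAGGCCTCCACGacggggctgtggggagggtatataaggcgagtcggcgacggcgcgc

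Some progenitor arrays stood apart from the rest. On progenitor arrays 1 and 4 the Gapdh control probe sets gave a 5′ to 3′ signal ratio of 0.332 and 0.120, while the other 9 arrays lay between 1.15 and 1.41, and their 18S rRNA signal was 4546 and 4384, against 28 to 659 elsewhere. Progenitor array 2 also stood apart: Myrf was at 6848 on it and at 752 to 1135 on the other progenitor arrays. Its cell cycle genes summed to 24645, against 92348 to 113280 on the other progenitor arrays. Myrf itself was at 1904 to 2849 in CKO cells and at 6215 to 7517 in control cells, and where its probe set lies relative to the deleted part is not given in the sources used here. Markers of astrocytes, the other cell type that such progenitors can form, summed to 101901 to 108602 in CKO cells, 69233 to 93471 in control cells and 9570 to 16176 in progenitors. All 11 of the measured astrocyte markers were higher in both oligodendrocyte groups than in progenitors. Over all genes 24.4% were higher in control and 23.8% in CKO oligodendrocytes than in progenitors. Gfap, the filament protein of astrocytes, reached 15352 to 16881 in CKO cells, 14658 to 17212 in control cells and 62 to 100 in progenitors. Gfap thus passed the filter only through the oligodendrocyte arrays, as other markers of the list may have, so the count is no separate support. Microglia markers were near background: 8 of 9 genes were under a signal of 100 on every array. The myelin list summed to 72916 to 86949 in CKO cells, 115862 to 139639 in control cells and 36425 to 99682 in progenitors.

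Control oligodendrocytes were first set against progenitors, which asks how the folding machinery differed after 4 days of differentiation. The small heat shock genes were far higher in the oligodendrocytes, the subunits of the cytosolic chaperonin were lower, and the J proteins and HSP70 proteins were split between both directions. In all, 15 of the 65 measured genes were higher and 21 lower at an adjusted p of 0.05, and the lower count was 14 without control array 2. Over all 10070 genes 24.4% were higher and 29.6% lower, or 54% in either direction, and the members' shares, 23.1%, 32.3% and 55.4%, were near those. The arrays of control oligodendrocytes and progenitors did not overlap for 14 members that were higher and 18 that were lower, against 20.1% and 23.7% of all genes. The median log2 difference was -0.19 over the members and -0.09 over all genes. The number of differing genes therefore does not set these families apart from the rest of the array, and what follows is about which members moved in which direction.

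**Figure D1:**
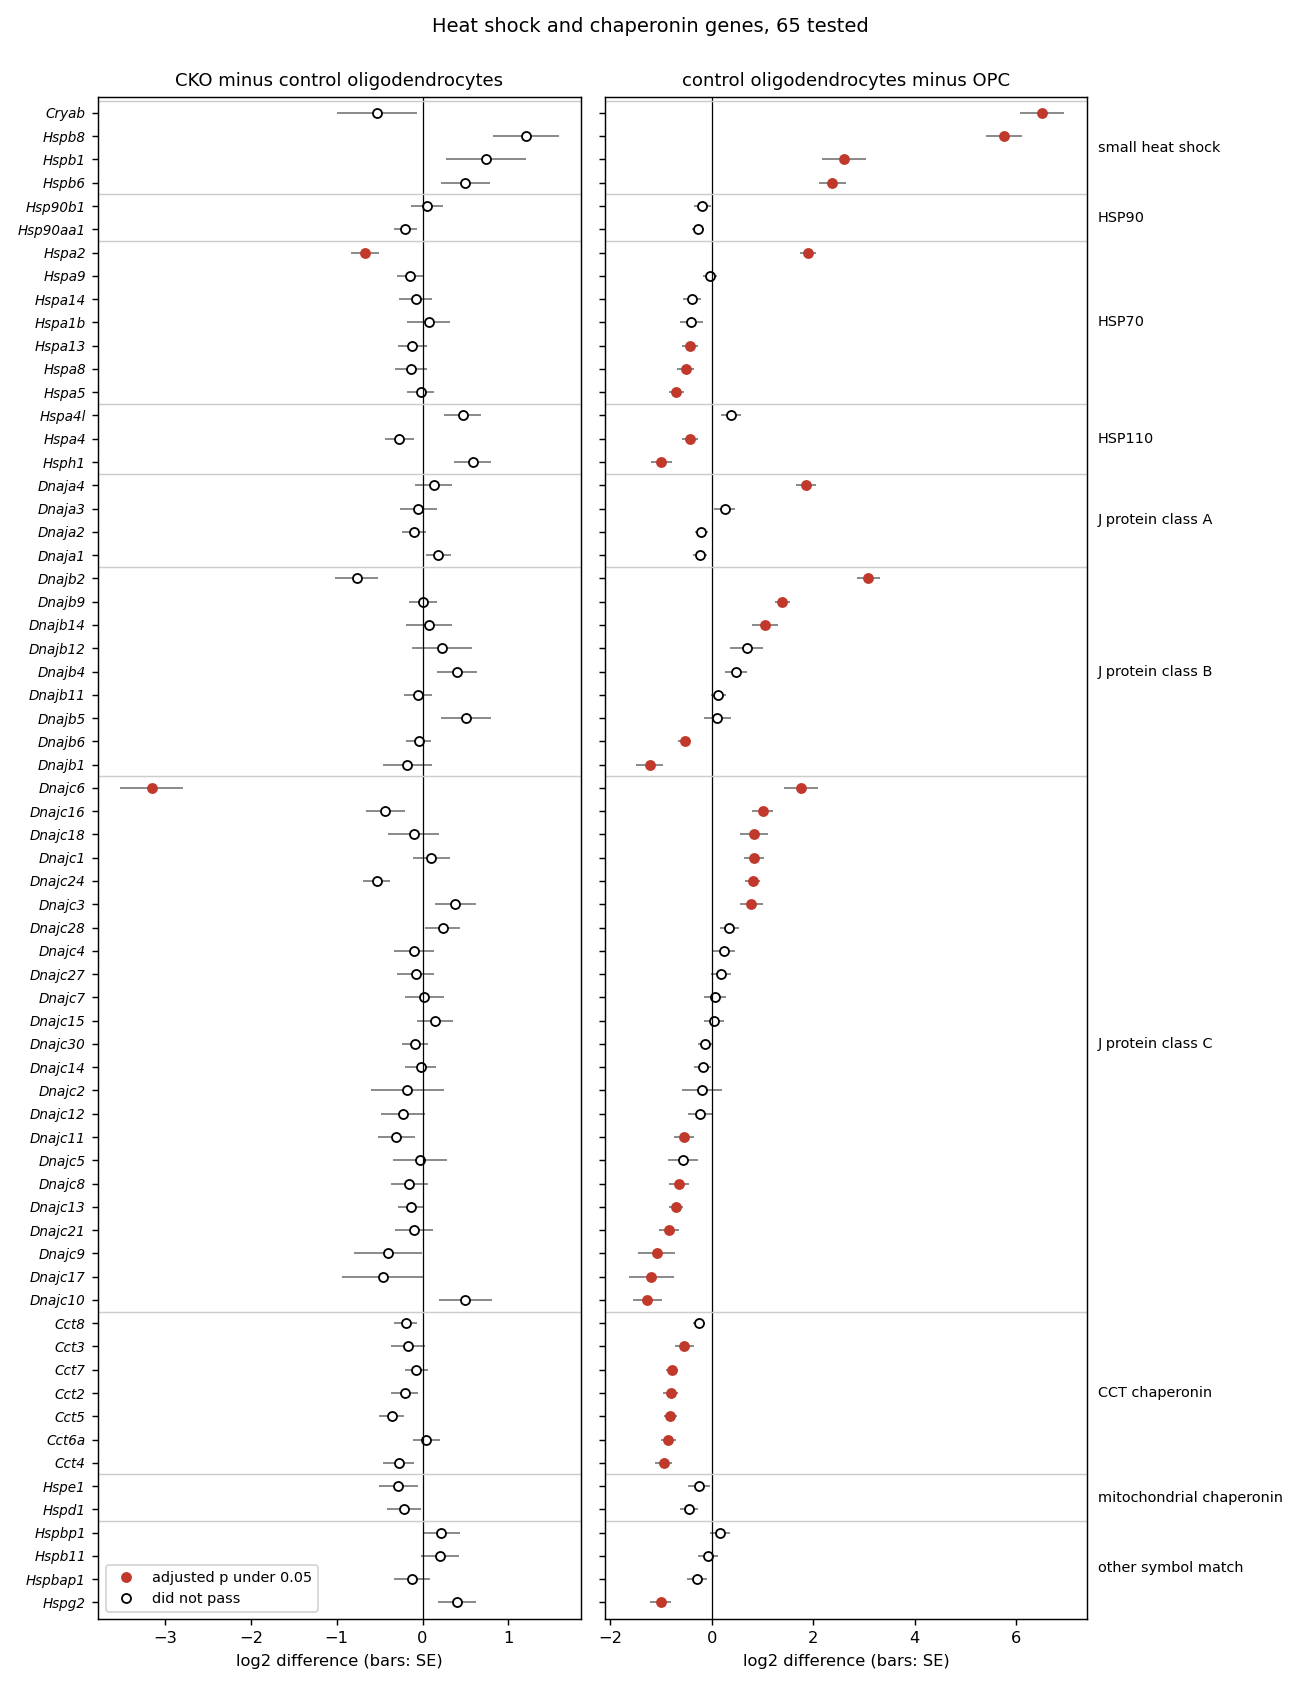
Fitted log2 difference of each of the 65 measured genes, in rows grouped by family, for CKO minus control oligodendrocytes (left) and control oligodendrocytes minus progenitors (right), with bars of 1 SE. Filled points passed an adjusted p of 0.05. The small heat shock genes lie far to the right of 0 against progenitors and the CCT subunits to the left, while only Dnajc6 and Hspa2 are filled between CKO and control cells. The axes of the panels differ.

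Relative to progenitors, control oligodendrocytes had more of all 4 measured small heat shock genes. All 8 of their passing probe sets were called higher, against 27.4% of all probe sets. Only 1 of these 8 is of Hspb6. The others are of Cryab, Hspb1 and Hspb8, which passed the filter only through the oligodendrocyte arrays, so the count is no separate support. Cryab, the small heat shock protein first found in the lens, had signals of 1160, 3090, 3128 and 3372 in control oligodendrocytes, against 0.8, 2.1, 36.3 and 19.2 in progenitors. Hspb8, which works with the co-chaperone Bag3 in clearing misfolded proteins, had 2133, 2006, 1631 and 2703 in control oligodendrocytes, against 10.6, 21.7, 71.5 and 9.9 in progenitors. The progenitor arrays all lay under a signal of 100, taken here as the level below which no order is read, so only a lower limit of the fold can be given. Cryab was at least 24.8-fold higher (adjusted p = 6.91e-07) and Hspb8 at least 20.8-fold higher (adjusted p = 3.91e-07).

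Hspb1, known as HSP27 or HSP25 and a guard of actin filaments, had 344, 266, 477 and 443 in control oligodendrocytes, against 42.8, 64.8, 86.1 and 18.3 in progenitors. It was at least 3.73-fold higher (adjusted p = 0.000497). Hspb6, or HSP20, was well measured on both sides, with 1665, 2396, 2440 and 3044 in control oligodendrocytes and 401, 340, 557 and 488 in progenitors. Its log2 difference was 2.37 ± 0.27 (SE of the fit, as in all log2 differences), a 5.17-fold rise (adjusted p = 3.41e-05). The groups did not overlap for any of these genes. Cryab, Hspb1 and Hspb8 passed the filter only through the oligodendrocyte arrays, so their calls are no separate support for these limits. Hspb1, Hspb6 and Hspb8 are among the genes whose promoters were printed above. The other small heat shock genes on the array, Hspb2, Hspb3, Hspb7 and Hspb9, did not pass the filter.

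The astrocyte markers rose in the same arrays as the small heat shock genes, as did 3 of 3 measured markers of pericytes, smooth muscle and fibroblasts. The list of the latter holds 11 genes and summed to 1028 to 2967 in control oligodendrocytes and 346 to 586 in progenitors. With progenitor sums so low, its genes may have passed the filter through the oligodendrocyte arrays, so the count is no separate support. Over all genes 24.4% were higher. The part of astrocytes and of these other cells in the signal of Cryab, Hspb1, Hspb6 and Hspb8 was not tested. The rise of Hspb6, the one measured above the filter in every group, was past the threshold in all 24 alternative settings tried, including the one without progenitor arrays 1 and 4.

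**Figure D2:**
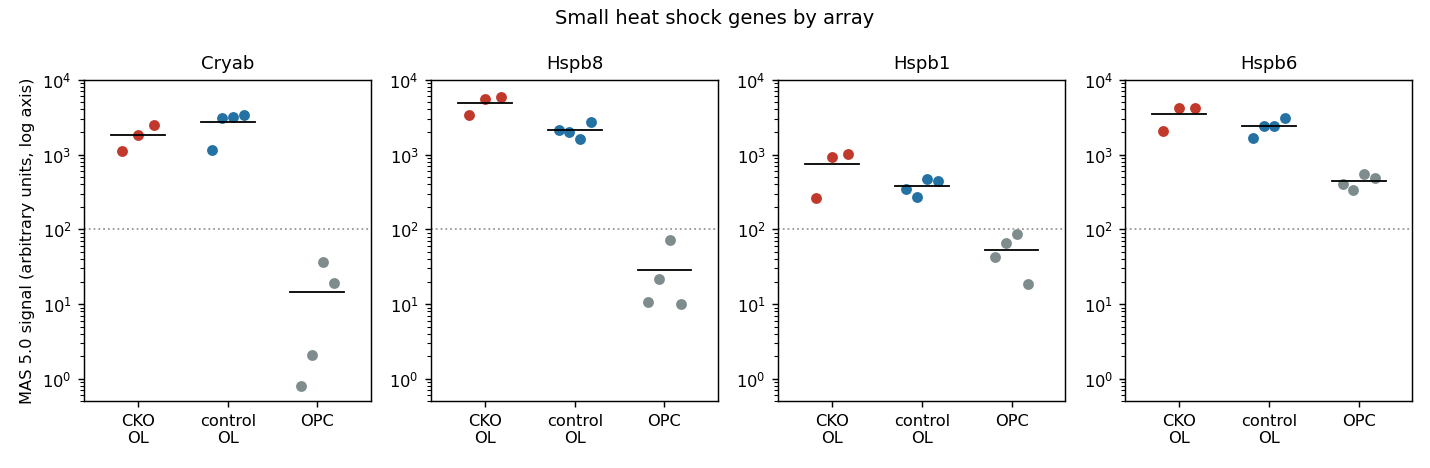
Signal of Cryab, Hspb1, Hspb6 and Hspb8 on each array (log scale, arbitrary MAS 5.0 units) in CKO oligodendrocytes (n = 3), control oligodendrocytes (n = 4) and progenitors (n = 4), with each array a point, group means as lines and a dotted line at 100. For Cryab, Hspb1 and Hspb8 every progenitor array lies under 100 and every oligodendrocyte array above 200, and CKO array 1 is the lowest CKO array in all 4 genes.

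The cytosolic chaperonin went the other way. Of its 7 measured genes that the symbols caught, 6 were lower in control oligodendrocytes, beside 29.6% of all genes. The 7th, Cct8, had the same sign without passing the test. Cct4 had signals of 6285, 6763, 8510 and 6860 in control oligodendrocytes, against 13398, 10484, 13656 and 17977 in progenitors, a log2 difference of -0.95 ± 0.17 (adjusted p = 0.000754). Cct5 had 7203, 7779, 8812 and 6839 in control oligodendrocytes, against 12831, 11545, 15196 and 14477 in progenitors (log2 -0.82 ± 0.13, adjusted p = 0.000445). In neither gene did the groups overlap.

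Of the other subunits 4 passed the test. Cct2 fell by 0.81 ± 0.15 on the log2 scale (adjusted p = 0.000822), Cct6a by 0.86 ± 0.14 (adjusted p = 0.000507) and Cct7 by 0.78 ± 0.12 (adjusted p = 0.000283). Cct3 differed by -0.54 ± 0.18 (adjusted p = 0.0237), and Cct8, at 4396 to 5779 in control oligodendrocytes and 5462 to 6252 in progenitors, by -0.25 ± 0.13 (adjusted p = 0.107, and 0.0412 without control array 3). Cct2, Cct4, Cct5, Cct6a and Cct7 passed the test in all 24 alternatives. Cct3 did not pass under quantile normalization (log2 -0.27, adjusted p = 0.157) or without progenitor arrays 1 and 4 (adjusted p = 0.0902), nor without any single one of control arrays 1, 2 and 4 or progenitor arrays 3 and 4 (adjusted p from 0.0517 to 0.0774).

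Of the 21 passing chaperonin probe sets, 14 were called lower, 0 were called higher and 19 had a log2 difference below 0. Cct5 and Cct8 had only 1 each, while Cct3 had 5 and Cct4 had 7. Cct3 and Cct4 each had 1 probe set above 0, at 0.78 and 0.28. Over all probe sets 25.5% were called lower, while the share with a value below 0 was not counted. Probe sets of 1 gene are repeated readings of it and not separate members. The remaining ring subunit, Tcp1, lies outside the symbol rule and was taken from a list of chaperonin partners. It had 7467, 7194, 9601 and 6788 in control oligodendrocytes, against 14501, 9722, 13787 and 16561 in progenitors (log2 -0.80, adjusted p = 0.00307). Of the 13 measured genes of that list, which also holds prefoldin, the complex that hands actin and tubulin to the ring, 2 were lower (Tcp1 and Pdcl3) and 1 was higher (Pdrg1), with a median of 0.01. Pdrg1 was lost without control array 3 or progenitor array 3 (adjusted p = 0.0583 and 0.063). The cell cycle genes were lower too, all 14 of those measured, beside 29.6% of all genes. They summed to 10426 to 23403 in control oligodendrocytes and 24645 to 113280 in progenitors. Whether the level of dividing cells has a part in the chaperonin difference was not tested.

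**Figure D3:**
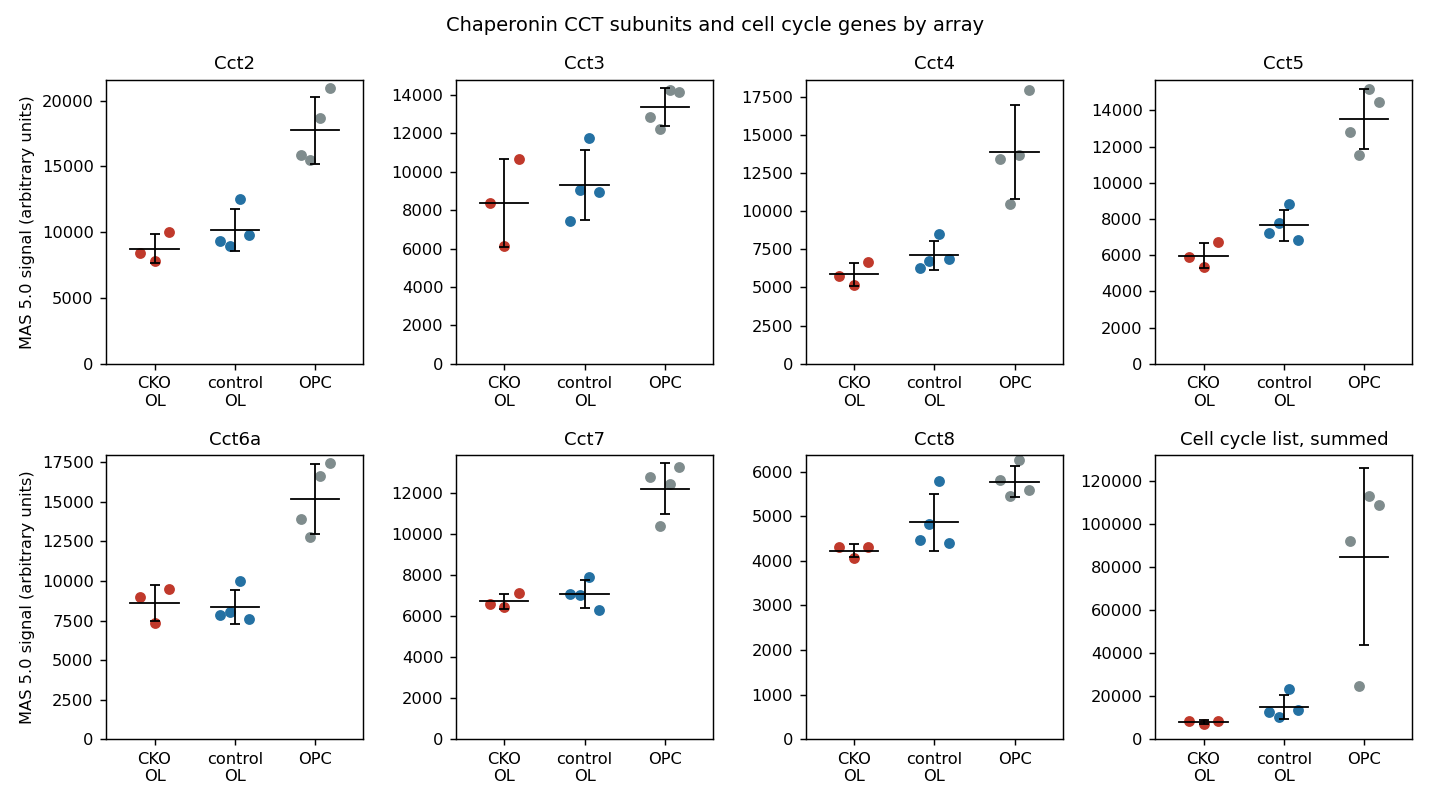
Signal of 7 subunits of the cytosolic chaperonin, and the summed signal of the cell cycle list, on each array, in arbitrary MAS 5.0 units, in CKO oligodendrocytes (n = 3), control oligodendrocytes (n = 4) and progenitors (n = 4). Progenitor arrays lie above both oligodendrocyte groups in Cct2 to Cct7, and in Cct8 the progenitor and control arrays overlap. Lines and bars are group means and SD.

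Among HSP70 proteins 1 of 7 measured genes rose and 3 fell, beside 24.4% higher and 29.6% lower over all genes. Hspa2, an HSP70 best known from sperm development, had 954, 814, 948 and 1130 in control oligodendrocytes, against 224, 277, 232 and 251 in progenitors. It rose by 1.89 ± 0.15 on the log2 scale, 3.71-fold (adjusted p = 2.51e-06), with no overlap. Hspa8, the constitutive HSP70 of the cytosol, had 17108 to 20026 in control oligodendrocytes and 20140 to 35268 in progenitors. Its log2 difference of -0.52 ± 0.17 (adjusted p = 0.0239) shrank to -0.02 under quantile normalization (adjusted p = 0.819). It was also lost without any single one of control arrays 2 and 4 and progenitor arrays 3 and 4 (adjusted p from 0.0577 to 0.0632).

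Hspa5, or BiP, the HSP70 of the ER, had 8676, 7825, 9643 and 8190 in control oligodendrocytes, against 11842, 12667, 15302 and 16411 in progenitors. Its log2 difference was -0.70 ± 0.15 (adjusted p = 0.00226), although its other probe sets gave 0.14 and -1.18. Hspa13, a microsomal relative, fell by 0.43 ± 0.16 (adjusted p = 0.0362), a call that was lost without progenitor arrays 1 and 4 (adjusted p = 0.105) and without any single one of 5 arrays (CKO 1, control 1, 2 and 4, and progenitor 4, adjusted p from 0.0506 to 0.0972). Hspa9, or mortalin, the HSP70 of mitochondria, did not pass the test on its brightest probe set (log2 -0.05, adjusted p = 0.8). The heat-inducible Hspa1b was dim, at 192 to 274 in control oligodendrocytes and 245 to 422 in progenitors (log2 -0.40, adjusted p = 0.154), and its near-identical copy Hspa1a did not reach the filter, with a highest signal of 225.5. These genes are so alike that the probes of one can bind RNA of the other.

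Of the 3 HSP110 exchange factors 2 were lower, beside 29.6% of all genes. Neither HSP90 gene passed the test on its brightest probe set. Hsph1 had 1896, 1694, 2022 and 1775 in control oligodendrocytes, against 4481, 3216, 2551 and 5030 in progenitors, a log2 difference of -0.99 ± 0.20 (adjusted p = 0.00155). Its other passing probe set gave 0.47 (adjusted p = 0.307), and the mean over both gave -0.26 (adjusted p = 0.215). Hspa4 fell by 0.43 ± 0.16 (adjusted p = 0.0345), and this call was lost without any single one of control arrays 1, 2 and 4 and progenitor arrays 3 and 4 (adjusted p from 0.0787 to 0.0952) and without progenitor arrays 1 and 4 together (adjusted p = 0.0753). Hspa4l did not pass (log2 0.38, adjusted p = 0.124), though it did without progenitor array 1 or array 4 (adjusted p = 0.0281 and 0.0213). Hsp90aa1, the inducible cytosolic HSP90, had a log2 difference of -0.28 (adjusted p = 0.0771, and 0.0258 without progenitor array 2), and Hsp90b1, its ER form GRP94, of -0.19 (adjusted p = 0.372). The other passing probe set of Hsp90b1 gave 0.80, past the threshold where all probe sets were fitted (adjusted p = 0.0436).

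J proteins made up 36 of the measured genes, and 10 of these rose and 9 fell. Over all genes 24.4% were higher and 29.6% lower, so these counts are not read as a result about the family. Dnajb2, a J protein known from neurons that carries clients towards degradation, had 2146, 1439, 2287 and 1415 in control oligodendrocytes, against 187, 227, 252 and 135 in progenitors. It rose 8.48-fold (log2 3.08 ± 0.23, adjusted p = 1.43e-06). Dnaja4 had 384, 613, 499 and 506 in control oligodendrocytes, against 111, 100, 161 and 134 in progenitors, a 3.63-fold rise (log2 1.86 ± 0.20, adjusted p = 2.58e-05). Neither gene overlapped between groups. Every progenitor array of Dnaja4 was under 200, so it passed the filter only through the oligodendrocyte arrays and its call is no separate support.

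Dnajc6, or auxilin, which brings HSP70 to clathrin-coated vesicles so that the coat comes off, had 450, 474, 391 and 183 in control oligodendrocytes, against 67.9, 125, 77.3 and 112 in progenitors (log2 1.76 ± 0.34, adjusted p = 0.00117). Control array 4 was the lowest of its group, still above every progenitor array. Dnajc6 passed the filter only through the control arrays, so its call is no separate support. Dnajb9 and Dnajc3, J proteins of the ER that the unfolded protein response induces, both rose. Dnajb9 had 3194 to 3726 in control oligodendrocytes and 1074 to 1498 in progenitors (log2 1.39 ± 0.15, adjusted p = 2.48e-05). Dnajc3 had 1672 to 2292 in control oligodendrocytes and 820 to 1504 in progenitors (log2 0.78 ± 0.22, adjusted p = 0.0119), but without progenitor arrays 1 and 4, its 2 lowest, the difference was 0.38 (adjusted p = 0.111).

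Of the J proteins that fell, Dnajb1, or HSP40, the main cytosolic partner of HSP70 after heat, had 1332, 1551, 1985 and 1990 in control oligodendrocytes, against 4464, 3020, 2799 and 6636 in progenitors (log2 -1.23 ± 0.26, adjusted p = 0.00231). Progenitor arrays 1 and 4 were its 2 highest, and without them the log2 difference was -0.78 (adjusted p = 0.0148). Its other passing probe set gave 0.90 (adjusted p = 0.0904), and the mean over both gave -0.16 (adjusted p = 0.425). Dnajc10, or ERdj5, a disulfide reductase of the ER, showed the same pair of high arrays, with 1172, 1258, 1085 and 1311 in control oligodendrocytes and 3805, 1939, 1938 and 5096 in progenitors. Its log2 difference was -1.27 ± 0.29 (adjusted p = 0.0031), and -0.68 (adjusted p = 0.00979) without progenitor arrays 1 and 4. Dnajc21, a cofactor of ribosome assembly, fell by 0.84 ± 0.20 (adjusted p = 0.00449).

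Dnajc9, a J protein that also carries histones, had 1852, 1492, 2484 and 1745 in control oligodendrocytes, against 6189, 1526, 6021 and 4364 in progenitors (log2 -1.09 ± 0.37, adjusted p = 0.0261). Progenitor array 2, the one with the low cell cycle sum, lay within the control range, and the part of dividing cells was not tested. The call was lost without progenitor arrays 1 and 4 (adjusted p = 0.215) and without any single one of control arrays 1, 2 and 4 and progenitor arrays 1, 3 and 4 (adjusted p from 0.053 to 0.0829). Dnajc11, of the mitochondrial outer membrane, fell by 0.56 ± 0.20 (adjusted p = 0.0332), and was lost without progenitor arrays 1 and 4 (adjusted p = 0.197) and without any single one of control arrays 1, 2 and 4 and progenitor arrays 1 and 4 (adjusted p from 0.0594 to 0.104).

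Of 7 measured members placed in mitochondria 1 fell, and of 8 placed in the ER 3 rose (Dnajb9, Dnajc1 and Dnajc3) and 3 fell (Dnajc10, Hspa13 and Hspa5). Over all genes 24.4% were higher and 29.6% lower, and these few genes are not read as a result about either compartment. Hspd1 (HSP60) had 6931 to 10228 in control oligodendrocytes and 9022 to 14990 in progenitors (log2 -0.45, adjusted p = 0.0523). Its lid Hspe1 had 4654 to 6501 in control oligodendrocytes and 4610 to 9082 in progenitors (log2 -0.26, adjusted p = 0.321). The 2 share the stretch of promoter printed above, and control array 3 was the highest control array for both. Hspd1 passed the test without control array 3 (adjusted p = 0.0175), progenitor array 1 (adjusted p = 0.0478) or progenitor array 2 (adjusted p = 0.028), and Hspe1 without progenitor arrays 1 and 4 together (log2 -0.58, adjusted p = 0.0482). The symbol match Hspg2, perlecan, fell by 1.01 ± 0.21 (adjusted p = 0.00181).

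Probe sets of 1 gene did not always give the same direction in this comparison. Of 43 genes with several passing probe sets, 20 had both signs. In 4 of them, Dnaja2, Dnajb6, Hspa13 and Hspa9, probe sets passed the test in opposite directions. Neither count was made over all genes of the array, so they are not read as particular to these families. Hspa9 had probe sets at 2.94 (adjusted p = 0.00166) and -1.15 (adjusted p = 0.041). Dnajb6, a J protein that keeps polyglutamine proteins from clumping and holds an element of 3 units above, had its brightest probe set at -0.54 ± 0.13 (adjusted p = 0.00504) and the other passing ones at 1.16 and 0.57 (adjusted p = 0.0293 and 0.00914). The counts of genes above use the brightest probe set, and no direction beyond it is drawn for these 4 genes.

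The progenitor arrays with low Gapdh 5′ to 3′ ratios differed from the other progenitor arrays on a part of the member probe sets. On 36 of the 142 probe sets, the mean of progenitor arrays 1 and 4 lay over 1 on the log2 scale away from that of arrays 2 and 3. It was higher for 8 and lower for 28 of these, in 26 genes. The same count was not made over all probe sets, so it is not read as particular to these genes. Dnajc5, the cysteine string protein of secretory vesicles, had 5384 and 8165 on progenitor arrays 1 and 4 and 2742 and 2789 on arrays 2 and 3. Its log2 difference of -0.58 (adjusted p = 0.116) was 0.05 (adjusted p = 0.755) without arrays 1 and 4, and -0.79 and -0.78 (adjusted p = 0.0237 and 0.0416) without array 2 or array 3. The part of RNA quality in these results was not tested beyond leaving those arrays out.

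**Figure D4:**
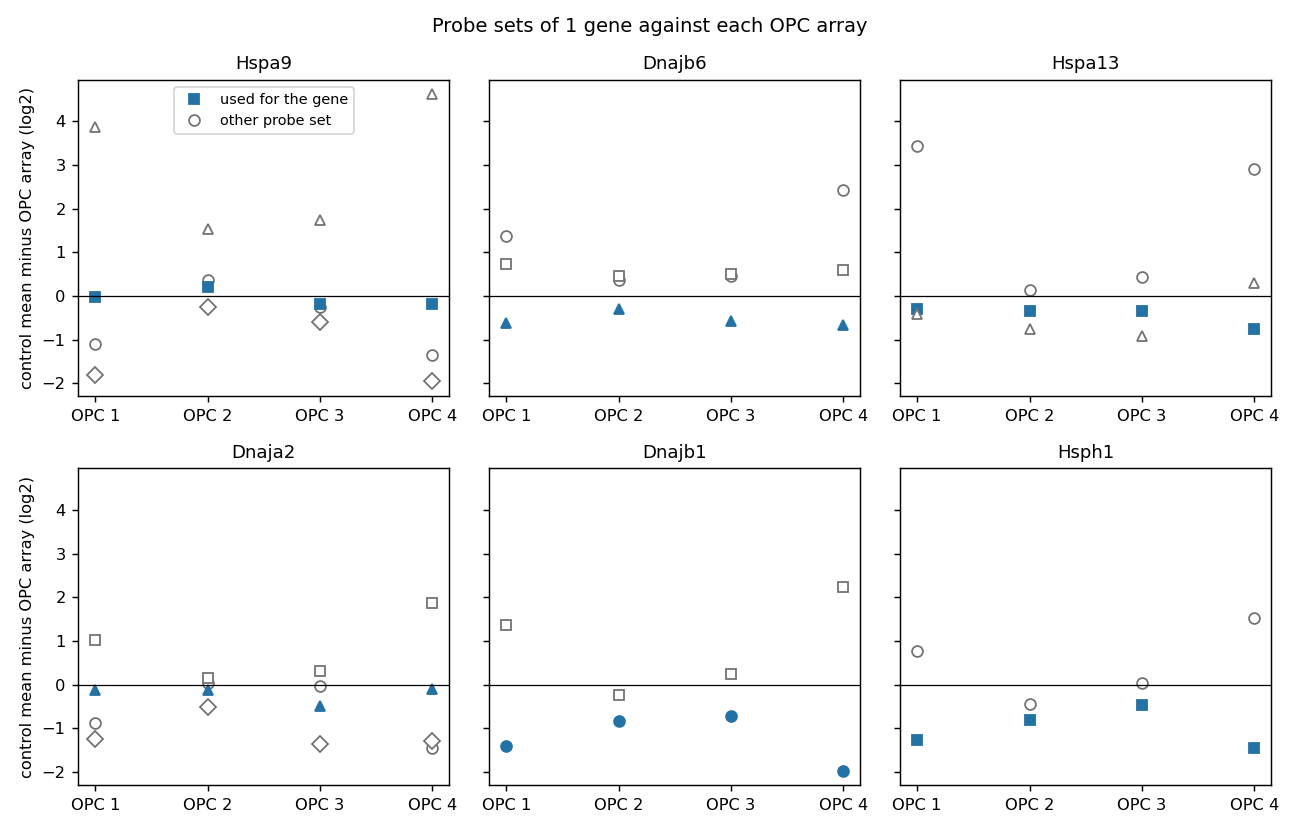
Mean of the control oligodendrocyte arrays minus each progenitor array on the log2 scale, for every passing probe set of 6 genes, with a marker shape per probe set. Filled markers are the probe set that stood for the gene. In Hspa9, Hspa13, Dnaja2, Dnajb1 and Hsph1 the probe sets lie farther apart on progenitor arrays 1 and 4 than on arrays 2 and 3, and in Dnajb6 they lie on both sides of 0 on all 4 arrays.

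CKO oligodendrocytes were then set against control oligodendrocytes, which asks what the loss of Myrf changed in these genes under the same differentiation conditions. Very few members differed: 0 of 65 were higher and 2 were lower, Dnajc6 and Hspa2. Over all genes 3.64% were higher and 3.88% lower, or 7.53% in either direction, and the members' share was 3.08%. At an unadjusted p of 0.05, 8 members passed, or 12.3%, against 21.2% of all genes. Arrays of CKO and control cells did not overlap for 6 members that were higher and 9 that were lower in CKO cells, which is 9.23% and 13.8%, against 17.4% and 14.2% of all genes. The median log2 difference was -0.08 over the members and 0.03 over all genes. The 2 lower calls became 0 without control array 1 or 3, and 1 without CKO array 1, 2 or 3 or control array 2 or 4.

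Dnajc6 had signals of 15.2, 25.7 and 38.3 in CKO cells, against 450, 474, 391 and 183 in control cells, so every CKO array lay below every control array. As the CKO arrays were under 100, only a limit is given: the fall was at least 3.51-fold (adjusted p = 0.000256). The gene passed the filter only through the control arrays, so its call is no separate support for this limit. It was not measured with a filter at 400 or without control array 1, 2 or 3. The remaining 3 probe sets of the gene were dim on all arrays and give no second measurement.

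Hspa2 had 592, 612 and 578 in CKO cells, against 954, 814, 948 and 1130 in control cells. It was 1.59-fold lower (log2 -0.67 ± 0.16, adjusted p = 0.0267), with no overlap and with CKO values between those of control oligodendrocytes and those of progenitors. The call was lost without any single one of CKO arrays 1, 2 and 3 or control arrays 1, 3 and 4 (adjusted p from 0.0623 to 0.104), and with no filter on dim probe sets (adjusted p = 0.0565). The Myrf motif CTGGCAC or CTGGTAC was searched on both strands in the promoter windows and was in those of 7 member genes (Dnajc14, Dnajc4, Dnajc9, Hspa4, Hspb11, Hspd1 and Hspe1). It was in 9.2% of member windows, against 7.1% of all windows, and its letters were not in the windows of Dnajc6 or Hspa2. Overlapping windows, as of Hspd1 and Hspe1, were each counted here too.

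Several members missed the threshold with arrays that did not overlap. Hspb8 had 3407, 5583 and 5880 in CKO cells, against 2133, 2006, 1631 and 2703 in control cells, a log2 difference of 1.20 ± 0.38 (adjusted p = 0.0831). Its other probe sets gave 1.21 (adjusted p = 0.0546) and 0.38 (adjusted p = 0.754). Dnajb2 had 990, 1248 and 903 in CKO cells, against 2146, 1439, 2287 and 1415 in control cells (log2 -0.77 ± 0.25, adjusted p = 0.0886). Hsph1 had 2874, 2580 and 2891 in CKO cells, against 1896, 1694, 2022 and 1775 in control cells (log2 0.59 ± 0.22, adjusted p = 0.133). Cct5 had 5882, 5329 and 6717 in CKO cells, against 7203, 7779, 8812 and 6839 in control cells (log2 -0.36 ± 0.15, adjusted p = 0.176).

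Arrays with the same number deviated together weakly in these 2 groups (r = 0.242, 0.241 and 0.214 for numbers 1, 2 and 3). For number 3 the highest r was with another number (0.328), and the labels state no pairing. The fit with the number as a block is therefore given beside these values and not in their place. It used CKO arrays 1 to 3 and control arrays 1 to 3 only, and it called 4 of 64 members higher and 5 lower. These are 6.25% and 7.81% of the members, against 13.6% and 9.36% of all genes in that fit. Hspb8 then had 1.33 (adjusted p = 0.0113), Hsph1 0.57 (adjusted p = 0.0218), Hspb6 0.63 (adjusted p = 0.0311), Dnajb2 -0.88 (adjusted p = 0.0407) and Cct5 -0.41 (adjusted p = 0.0369). Hspa2 passed again with -0.59 (adjusted p = 0.0317). So did Dnajc6 (adjusted p = 0.00104), but it passed the filter only through the control arrays, so this is no separate support. The other 2 calls, named after their values were seen, were Dnajb5 (higher) and Dnajc24 (lower). Leaving out progenitor arrays 1 and 4 also brought Hspb8 (adjusted p = 0.0357), Hsph1 (adjusted p = 0.0194) and Dnajb2 (adjusted p = 0.0438) past the threshold. Leaving out progenitor array 3 alone brought Hspb8 past it (adjusted p = 0.0146). Progenitor arrays are in neither mean of this comparison, but they enter the estimate of spread, the filter and the choice of probe set.

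The other 3 small heat shock genes did not pass in the fit of all arrays. Cryab had 1111, 1814 and 2507 in CKO cells, against 1160, 3090, 3128 and 3372 in control cells (log2 -0.53 ± 0.47, adjusted p = 0.573). Hspb1 had 266, 922 and 1025 in CKO cells, against 344, 266, 477 and 443 in control cells (log2 0.74 ± 0.47, adjusted p = 0.404), and 1.34 (adjusted p = 0.111) without CKO array 1. Hspb6 had 2042, 4166 and 4248 in CKO cells, against 1665, 2396, 2440 and 3044 in control cells (log2 0.50 ± 0.29, adjusted p = 0.352). CKO array 1 was the lowest CKO array for all 4 small heat shock genes. For Cryab, control array 1 was likewise the lowest of its group.

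**Figure D5:**
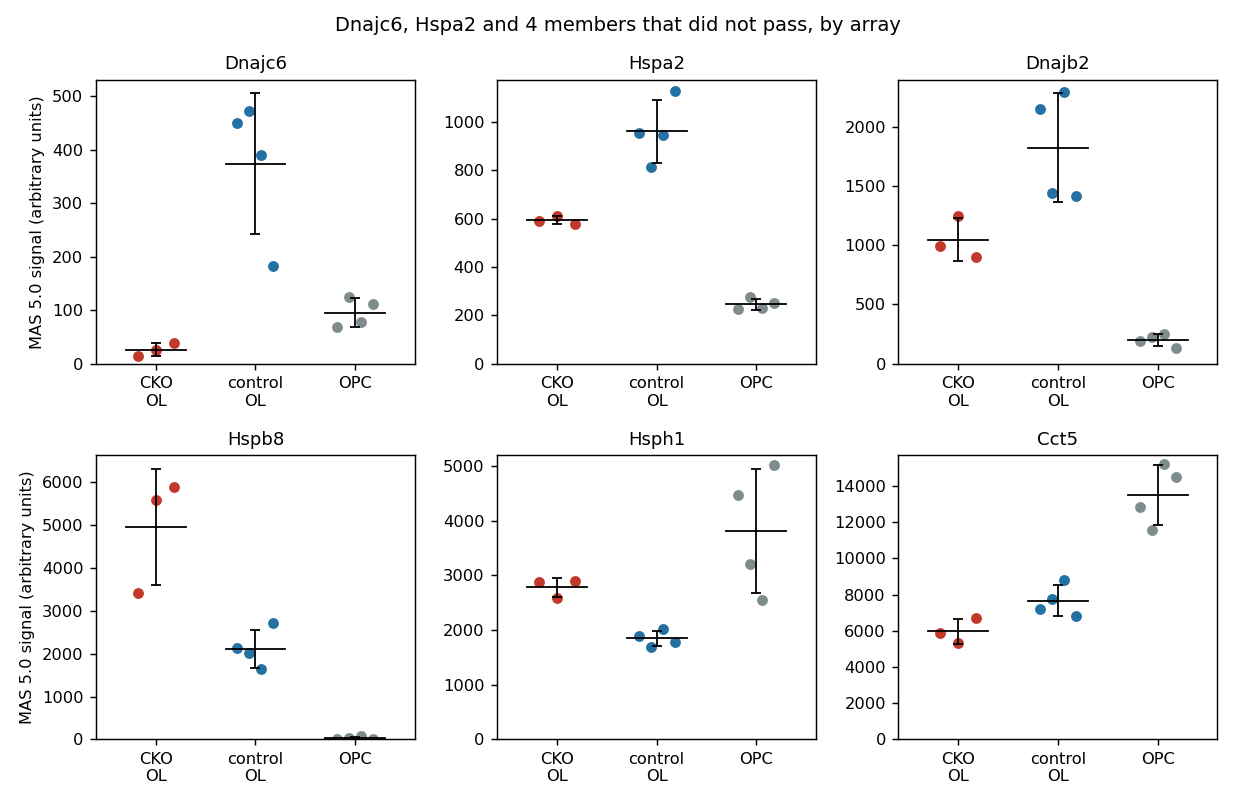
Signal of Dnajc6, Hspa2 and 4 members that did not pass the test (Dnajb2, Hspb8, Hsph1 and Cct5) on each array of CKO oligodendrocytes (n = 3), control oligodendrocytes (n = 4) and progenitors (n = 4), in arbitrary MAS 5.0 units, with group means and SD. Dnajc6 and Hspa2 are lower on every CKO array than on any control array, and Hspb8 and Hsph1 are higher on every CKO array.

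Markers of other cells also differed between these groups. The list of pericytes, smooth muscle and fibroblasts summed to 4794 to 8361 in CKO cells and 1028 to 2967 in control cells, and 2 of its 3 measured genes were higher, Tagln (log2 2.58, adjusted p = 0.0188) and Myl9 (log2 1.75, adjusted p = 0.0386). Without any single CKO array neither passed (adjusted p from 0.0593 to 0.174), and Myl9 missed it also without control array 4 or progenitor array 3 (adjusted p = 0.06 and 0.0512). Over all genes 3.64% were higher. Genes of this list may have passed the filter through their brighter arrays, so the count of 2 is no separate support. The endothelial list summed to 1042 to 1439 in CKO cells and 236 to 574 in control cells, with Vwf higher (log2 2.40, adjusted p = 0.00771). The astrocyte sum was 101901 to 108602 in CKO cells and 69233 to 93471 in control cells, with 0 of 11 genes called and a median log2 of 0.52. The part of these cells in the values of Hspb1, Hspb6 and Hspb8 was not tested.

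The neuron and cell cycle lists were lower in CKO cells. The neuron list summed to 1090 to 1461 in CKO cells and 1800 to 2585 in control cells, while Rbfox3, Gad1 and Slc17a6, 3 of its 9 genes, were under a signal of 100 on every oligodendrocyte array. Of its 5 measured genes 1 was called, the neurofilament gene Nefm, at 49.4, 76.4 and 61.1 in CKO cells, against 117.9, 225.6, 927.1 and 248.5 in control cells. It was at least 2.80-fold lower (adjusted p = 0.0409), and missed the threshold without any single one of CKO arrays 1, 2 and 3, control arrays 2 and 4 and progenitor array 1 (adjusted p from 0.0573 to 0.146).

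The cell cycle list summed to 6981 to 8669 in CKO cells and 10426 to 23403 in control cells. CKO and control arrays did not overlap for 13 of its 14 measured genes, all lower in CKO cells, against 14.2% of all genes. The median log2 difference was -1.31. The 1 gene called was Mki67 (4.01-fold lower, adjusted p = 0.0443), and it missed the threshold without any single one of CKO arrays 1, 2 and 3, control arrays 1, 3 and 4 and progenitor arrays 1 and 3 (adjusted p from 0.0528 to 0.195). The part of neurons in the values of Dnajc6 and Dnajb2, and of dividing cells in those of the chaperonin subunits, was not tested.

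Other families stayed under the threshold here. All 7 chaperonin subunits, both HSP90 genes, 3 HSP110 genes, the mitochondrial chaperonin pair and all 8 members of the ER passed in neither direction. Of the 21 chaperonin probe sets, which are of only 7 genes, 0 were called lower, against 3.13% of all probe sets. A log2 value below 0 was found in 17 of the 21. That share was not counted over all probe sets, so it is not read as a result about the chaperonin. Hspa5 had 8056, 7168 and 10352 in CKO cells, against 8676, 7825, 9643 and 8190 in control cells (log2 -0.02, adjusted p = 0.959). Hsp90aa1 had 9422 to 11410 in CKO cells and 10707 to 12920 in control cells (log2 -0.20, adjusted p = 0.426). Hspa1b had 204 to 292 in CKO cells and 192 to 274 in control cells (log2 0.07, adjusted p = 0.912), so the heat-inducible gene gave no detectable difference.

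CKO oligodendrocytes against progenitors formed the third comparison. It shares the CKO arrays with the second comparison and the progenitor arrays with the first, so its values are given beside theirs and not as separate support. In it 15 of 65 members were higher and 23 lower, which makes 23.1% and 35.4% of the members, against 23.8% and 26.8% of all genes. In either direction it was 58.5% of the members, against 50.6% of all genes. The median log2 difference was -0.31 over the members and -0.05 over all genes. Under median centring the median of all genes moved to -0.17.

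All 4 small heat shock genes were again higher. Hspb8 was at least 48.2-fold higher in CKO cells than in progenitors (adjusted p = 1.54e-07) and Cryab at least 17.2-fold (adjusted p = 2.56e-06). Hspb1 was at least 6.31-fold higher (adjusted p = 0.000157), and Hspb6 was 7.31-fold higher (log2 2.87 ± 0.29, adjusted p = 1.6e-05). All 8 of their probe sets were called higher, against 27% of all probe sets. As Cryab, Hspb1 and Hspb8 passed the filter only through the oligodendrocyte arrays, their calls and this count are no separate support. Without CKO array 1, the lowest of its group, Hspb1 was at least 9.72-fold higher.

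All 7 chaperonin subunits were lower in CKO cells, Cct8 included (log2 -0.45 ± 0.14, adjusted p = 0.0161). Cct4 had 5740, 5164 and 6668 in CKO cells, against 13398, 10484, 13656 and 17977 in progenitors (log2 -1.22 ± 0.18, adjusted p = 0.000236). Cct5 had a log2 difference of -1.17 (adjusted p = 6.69e-05) and Cct2 of -1.01 ± 0.16 (adjusted p = 0.000316). Of the 21 chaperonin probe sets 16 were called lower and 0 higher, against 23.3% of all probe sets called lower. The calls of Cct3 and Cct8 were lost without CKO array 2 (adjusted p = 0.0557 and 0.0596), and that of Cct3 also under quantile normalization (log2 -0.38, adjusted p = 0.0821). The cell cycle sum was 6981 to 8669 in CKO cells and 24645 to 113280 in progenitors, and its part was not tested.

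Further members passed the test here. Hspd1 had 6446, 6352 and 7232 in CKO cells, against 9129, 9022, 14990 and 10253 in progenitors (log2 -0.67 ± 0.20, adjusted p = 0.0141), and missed it without CKO array 2 (adjusted p = 0.0512). Hsp90aa1 had a log2 difference of -0.48 ± 0.13 (adjusted p = 0.0108), which was lost under quantile normalization (adjusted p = 0.655), with the mean of its probe sets (adjusted p = 0.0953) and without CKO array 2 (adjusted p = 0.0516). Hspa4l, an HSP110 protein, had 1013, 1015 and 884 in CKO cells, against 721, 580, 430 and 443 in progenitors (log2 0.85 ± 0.21, adjusted p = 0.00635).

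Hspa2 was 2.33-fold higher in CKO cells than in progenitors (log2 1.22 ± 0.16, adjusted p = 0.000115), and Dnajb2 was 4.98-fold higher (log2 2.32 ± 0.25, adjusted p = 2.67e-05). The log2 difference of each from progenitors was smaller in CKO than in control cells, 1.22 and 1.89 for Hspa2 and 2.32 and 3.08 for Dnajb2. Dnajc6 is among the 23 lower, but with 15.2 to 38.3 in CKO cells and 67.9 to 125 in progenitors, near or under 100, no difference is read from it. Dnajb9 had 3004 to 3716 in CKO cells and 1074 to 1498 in progenitors (log2 1.39 ± 0.16, adjusted p = 4.28e-05). Dnajc3 rose by 1.16 on the log2 scale (adjusted p = 0.00208). Hspg2 differed by -0.60 (adjusted p = 0.0403), which was lost without progenitor arrays 1 and 4 (adjusted p = 0.225) and without any single one of CKO arrays 2 and 3, control arrays 1, 2 and 4 and progenitor arrays 1 and 4 (adjusted p from 0.0513 to 0.134).

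The genes around the chaperones were read from lists, beside the shares called over all genes given above: 3.64% higher and 3.88% lower between CKO and control cells, 24.4% and 29.6% between control oligodendrocytes and progenitors, and 23.8% and 26.8% between CKO oligodendrocytes and progenitors. Of the HSF1 list, the regulators of the heat shock response, 5 of 9 genes were measured. Hsf2, Hsf4 and Hsbp1l1 did not pass the filter, and Hsf1 was not analysed here. Hsbp1, which binds HSF1 and holds it back, was higher (log2 1.32, adjusted p = 0.00429, and 0.65 with adjusted p = 0.0148 without progenitor arrays 1 and 4) and the deacetylase Sirt1 lower (log2 -1.03, adjusted p = 0.000583) in control oligodendrocytes than in progenitors. Between CKO and control cells 0 of the 5 were called.

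Among 31 measured co-chaperones of HSP90 and HSP70, 1 was higher and 0 lower in CKO than in control cells, and 2 were higher and 8 lower in control oligodendrocytes than in progenitors. The 1 was Bag1, an exchange factor that links HSP70 to the proteasome, with 4608, 3476 and 4723 in CKO cells, against 2647, 2260, 1979 and 2914 in control cells (log2 0.80 ± 0.22, adjusted p = 0.0456). Its arrays did not overlap, but the call was lost without any single one of CKO arrays 1, 2 and 3, control arrays 1, 2 and 3 and progenitor arrays 1 and 3 (adjusted p from 0.0568 to 0.166). In control oligodendrocytes against progenitors, Hyou1, the HSP110 protein of the ER, fell by 1.40 (adjusted p = 0.00638), by 0.74 without progenitor arrays 1 and 4 (adjusted p = 0.0621) and by 0.34 with the mean of its probe sets (adjusted p = 0.411). Bag4, which binds HSP70, fell by 1.33 (adjusted p = 2.75e-05), and by 0.45 with the mean of its probe sets (adjusted p = 0.029). CKO oligodendrocytes against progenitors had 2 of the 31 higher and 7 lower.

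Of 28 measured genes of ER folding and the unfolded protein response, 5 were higher and 7 lower in control oligodendrocytes than in progenitors, with a median of -0.09. The stress transcription factor Atf3 had 173 to 267 in control oligodendrocytes and 19.8 to 66.9 in progenitors, and passed the filter only through the oligodendrocyte arrays. It was at least 2.20-fold higher (adjusted p = 0.000128). Ddit3, another such factor, was higher as well (log2 1.79, adjusted p = 0.000532), while asparagine synthetase, Asns, and the disulfide isomerase Pdia6 were lower (log2 -1.45 and -0.99, adjusted p = 0.000991 and 0.000436). Between CKO and control cells 1 of the 28 was called: Edem1, which takes misfolded glycoproteins to degradation, had 554, 561 and 491 in CKO cells and 733 to 1000 in control cells (log2 -0.71 ± 0.17, adjusted p = 0.0221). That call was lost without any single one of CKO arrays 1, 2 and 3 and control arrays 1, 2 and 4 (adjusted p from 0.0562 to 0.1). Of 7 mitochondrial proteases 3 were lower in control oligodendrocytes than in progenitors, Lonp1 (log2 -1.02, adjusted p = 0.00921, and 0.0837 without progenitor arrays 1 and 4), Htra2 (log2 -1.01) and Afg3l2 (log2 -0.61), and 0 were called between CKO and control cells. Of 5 measured J proteins outside the symbol rule, Sec63 and Hscb had more signal in control oligodendrocytes than in progenitors (log2 0.46 and 0.50, adjusted p = 0.0196 and 0.0131), and Sec63 missed the threshold without control array 2 or 4 (adjusted p = 0.0603 and 0.0632).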

How the data were processed

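The deposited values are signal intensity in arbitrary linear units, made by the authors with MAS 5.0 in GCOS 1.3 and scaled to 500 on every array, per the submitters' processing notes. Per the labels' protocols, 1 µg of total RNA was amplified in a pair of cycles and read on 3′ arrays, the Mouse Genome 430 2.0. Arrays have no read depth, and their number, 3 or 4 a group, limits the precision.

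Sample titles gave the groups. Of 45101 probe sets, 34958 had 1 gene symbol in the platform annotation, 932 had several and 9211 had none listed. The filter required 200 on at least 3 arrays, and the brightest passing probe set over all arrays stood for its gene. Log2 of the signal plus 16 was fitted for all 11 arrays in limma 3.58.1 (R 4.3.3) with a mean per group and an intensity trend in the variance. P-values were adjusted by Benjamini-Hochberg over all 10070 genes, at a threshold of 0.05. Errors of log2 differences are standard errors of that fit. Where every array of the lower group was under 100, the fold is given as at least the brighter group's mean over that floor. Folds and log2 values of dim genes understate the change, as 16 was added. The fit was checked on simulated data with 200 of 10070 genes changed. For CKO against control cells it called 51% of changes of 1 on the log2 scale and 92% of changes of 2. For control oligodendrocytes against progenitors these were 47% and 80%, and for CKO oligodendrocytes against progenitors 44% and 88%. False calls made up 4.35% to 6.62% of calls. A member that was not called can therefore still differ.

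The members, the gene lists and the tests were chosen with earlier results of these data known. Genes named were a fixed panel of 33 (30 measured), up to 8 largest rises and falls per comparison without overlap, genes with probe sets called in opposite directions, and up to 3 genes per direction of each other list, and not every gene so selected is printed. Genes outside that rule are named only in counts.

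Same-numbered arrays of CKO and control oligodendrocytes deviated together weakly (r = 0.242, 0.241 and 0.214 for numbers 1, 2 and 3). For number 3 the highest r was with another number (0.328). The main fit used no pairs, and the number entered as a block only in an alternative fit. That block rests on these correlations and not on the labels. Alternatives changed the value added before log2, the filter, the normalization, the choice of probe set, the fit and the arrays. Promoters were searched with Python 3.11.15 and figures drawn with matplotlib 3.10.9. The promoter table held no entry for Cct4, Cryab, Dnajc12, Dnajc2, Dnajc30, Hspa9, Dnajc5b, Hspa8, Dnajc18, Hsp90aa1, Hspa13, Dnajc22, Hspb2, Dnajc11 and Dnajc5.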

Additional observations from a re-analysis of the deposited data

Results flagged for a closer look

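In groups of 4 arrays, a value was picked out when its gap to the nearest other array, divided by the range of the group, was above Dixon's 95% critical value, which chance exceeds in about 1 of 20 groups. Among the 75 groups looked at, 5 values met this. Hspd1 was at 10228.4 on control array 3, with the other control arrays at 6931 to 7159.4. Hspe1, which shares its promoter with Hspd1, was at 6500.8 on the same array, with the others at 4654.5 to 4768.4. Cryab was at 1160.1 on control array 1, with the others at 3089.9 to 3372. Among progenitors, Dnaja2 was at 9779.2 on array 3 (others 7468.7 to 7538.1) and Hspa13 at 3456.6 on array 4 (others 2494.9 to 2593.6).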

How the results depend on the processing

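Between CKO and control oligodendrocytes, the 0 higher members became 1 with 64 added before log2, 2 with array weights, 2 with only these groups fitted, 2 without progenitor arrays 1 and 4, and 4 with the replicate number as a block. The 2 lower members became 1 with a filter at 400 or with no filter, 4 with quantile normalization, 5 with array weights, 4 with only these groups fitted, 4 without progenitor arrays 1 and 4, and 5 with the block. Over all genes the shares higher and lower were 4.01% and 4.01% with 64 added, 3.44% and 4% with the filter at 400, 1.71% and 2.2% with no filter, 4.03% and 4.47% with quantile normalization, 11.9% and 9.53% with array weights, 8.76% and 7.65% with only these groups fitted, 5.92% and 5.54% without progenitor arrays 1 and 4, and 13.6% and 9.36% with the block. The members' shares reached 6.25% higher and 7.81% lower, both with the block. The block fit also left out progenitors and control array 4. Leaving out 1 array at a time gave 0 to 1 higher and 0 to 3 lower members in that comparison. It gave 12 to 17 higher and 14 to 25 lower for control oligodendrocytes against progenitors, and 12 to 17 higher and 16 to 27 lower for CKO oligodendrocytes against progenitors. With all passing probe sets fitted, 25 members had a probe set higher in control oligodendrocytes than in progenitors, against 15, and 27.4% of all probe sets were called higher. Among named members with a call before or after, the mean over a gene's probe sets turned 3 round against progenitors: in control oligodendrocytes Dnajb6 to 0.40, Dnajc5 to 0.58 and Hspa13 to 0.28, and in CKO cells Dnajb6 to 0.32, Dnajc5 to 0.59 and Hspa13 to 0.20; the cause was not tested. It also turned the sign of 3 members in control oligodendrocytes and 5 in CKO cells without a call on either side, Hsph1 in CKO cells (to 0.36) among them. It ended the calls of Dnajb1, Dnajc11, Hspa4, Hspa8 and Hsph1 in control oligodendrocytes (adjusted p from 0.0768 to 0.534) and of Dnajb1, Hsp90aa1, Hspa4 and Hspa8 in CKO cells (adjusted p from 0.0762 to 0.548). Of 931 pairs of a named gene and an alternative in CKO against control cells, 906 kept their side of the threshold with no called value turning sign (29 of these turned sign without a call), 7 lost a call and 18 gained one. Of 931 for control oligodendrocytes against progenitors, 858 kept theirs (8 turned sign without a call), 51 lost, 19 gained and 3 reversed. Of 929 for CKO oligodendrocytes against progenitors, 875 kept theirs (12 turned sign without a call), 35 lost, 16 gained and 3 reversed. Same-numbered arrays of oligodendrocytes and progenitors did not deviate together throughout (r from -0.12 to 0.19), so they were not read as pairs. For control and progenitor number 2, r was 0.193, against at most -0.077 with another number. The block gave 14 higher and 20 lower in control oligodendrocytes and 11 and 16 in CKO cells. It ended the calls of 3 named members in control oligodendrocytes (Dnajc11, Hspa13 and Hspa4, adjusted p from 0.077 to 0.0888). In CKO cells it ended 8 (Cct8, Dnajb6, Dnajc21, Hsp90aa1, Hspa13, Hspa4, Hspa4l and Hspg2, adjusted p from 0.054 to 0.209). Dnajc6 was not measured in 4 alternatives, and in 6 for CKO oligodendrocytes against progenitors. Signals under 100 give only limits of folds.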
